A study of Mus musculus with 2 samples.

Results

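The loci of 4 cardiac ion channel genes were examined in a ChIP-seq peak list of the T-box transcription factor TBX5: Cacna1c, Cacna1d, Cacnb2 and Hcn4. A peak was counted at a locus when its summit, the base of highest pileup, lay inside a fixed window around the gene on build mm9. The windows were chr6 from 118.48 to 119.22 Mb for Cacna1c, chr14 from 30.8 to 31.36 Mb for Cacna1d, chr2 from 14.45 to 14.95 Mb for Cacnb2 and chr9 from 58.62 to 58.75 Mb for Hcn4. They held 27 of the 8849 peaks of the list. The chromatin came from ventricles of adult wild type C57BL/6 mice, 15 weeks old and untreated, and was immunoprecipitated with an anti-TBX5 antibody or, as a control for unspecific pull-down, with rabbit IgG. All mice thus carried unaltered Tbx5, and the tissue is whole ventricle, a mixture of working myocardium, conduction tissue and other cells. Per the design text, each antibody was used on 2 biological replicates. The list merges them, no value of a single replicate was used here, and no spread between animals stands behind any value below.

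L-type calcium channels let calcium into the heart muscle cell during the plateau of the action potential and so start contraction. Cacna1c encodes the pore of Cav1.2, the main L-type channel of ventricular muscle. Cacna1d encodes the pore of Cav1.3, which is best known from the sinoatrial and atrioventricular nodes and the atria. Cacnb2 encodes a beta subunit, which sits on the pore from inside the cell and promotes its surface delivery and opening. Hcn4 encodes the main channel of the pacemaker current, which is high in the sinoatrial node and low in adult working ventricle. TBX5 is needed for heart and conduction system development and binds DNA at a short T-box element.

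The bases under the peaks were not read, because no mm9 sequence was used here. RefSeq promoter windows of build GRCm38.p6, which run from 250 bases before to 50 bases after an annotated start, were searched instead for the T-box core AGGTGT on both strands. The 4 genes had 8 such windows, 3 for Cacna1c, 2 for Cacna1d, 2 for Cacnb2 and 1 for Hcn4. The core was in 2 of these 8 windows, and 13.7% of all 32851 promoter windows of the table hold it. Both stretches are shown because they are the places where these promoters carry the letters of a T-box element. They are printed 5′ to 3′ on the gene's own strand, in 30 bases with the match in capitals, and Hcn4 has it as its complement on the other strand:
Cacna1c, second listed start: gggctcgccctcAGGTGTtcgcggctgccg
Hcn4: acaggagtaaggACACCTcctacctcagtc
The Cacna1c match began at base 24 counted from the start as base 1, and the Hcn4 match at position -233, counted back from the start. The Cacna1c gene is on chromosome 6 (minus strand) and Hcn4 on chromosome 9 (plus strand). The peaks were not compared with promoter positions, so whether any peak lies on a promoter was not tested. These matches describe the letters only.

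The core letters of 2 cardiac partner factors were searched in the same windows. The core of GATA factors, AGATAA, was in 0 of the 8 windows and in 11.2% of all windows. The core of NKX2-5, AAGTG, was in 1 of the 8 and in 46.4% of all. The exception was the second listed start of Cacnb2, with 3 matches. They are shown because no other member window had a partner core, and the middle one is the complement:
Cacnb2, position -168: ctgatattaatgAAGTGttactttgctttg
Cacnb2, position -86: aaaagcccctccCACTTggcccttggtaac
Cacnb2, position -38: ctgccttgcttgAAGTGgtcctgaaatcag
Neither of these Cacnb2 windows held the T-box core.

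Each of the 4 loci held TBX5 peaks, and Cacna1c, Cacnb2 and Hcn4 held more than most stretches of their length. The Cacna1c window of 740 kb held 12 peaks, and 2.79% of all 740 kb windows laid end to end over chromosomes 1 to 19 held 12 or more. The Cacnb2 window of 500 kb held 8 peaks, against 4.35% of windows of its length with 8 or more. The Hcn4 window of 130 kb held 4 peaks, against 2.43% of windows with 4 or more. The Cacna1d window of 560 kb held 3 peaks, and 30.2% of windows of its length held 3 or more, so its count was close to the background. These reference windows include stretches with few genes, whereas each locus window was placed on a gene. Among windows with at least 1 peak, the shares were 4.23%, 7.70%, 9.09% and 51.1% for Cacna1c, Cacnb2, Hcn4 and Cacna1d.

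**Figure D1:**
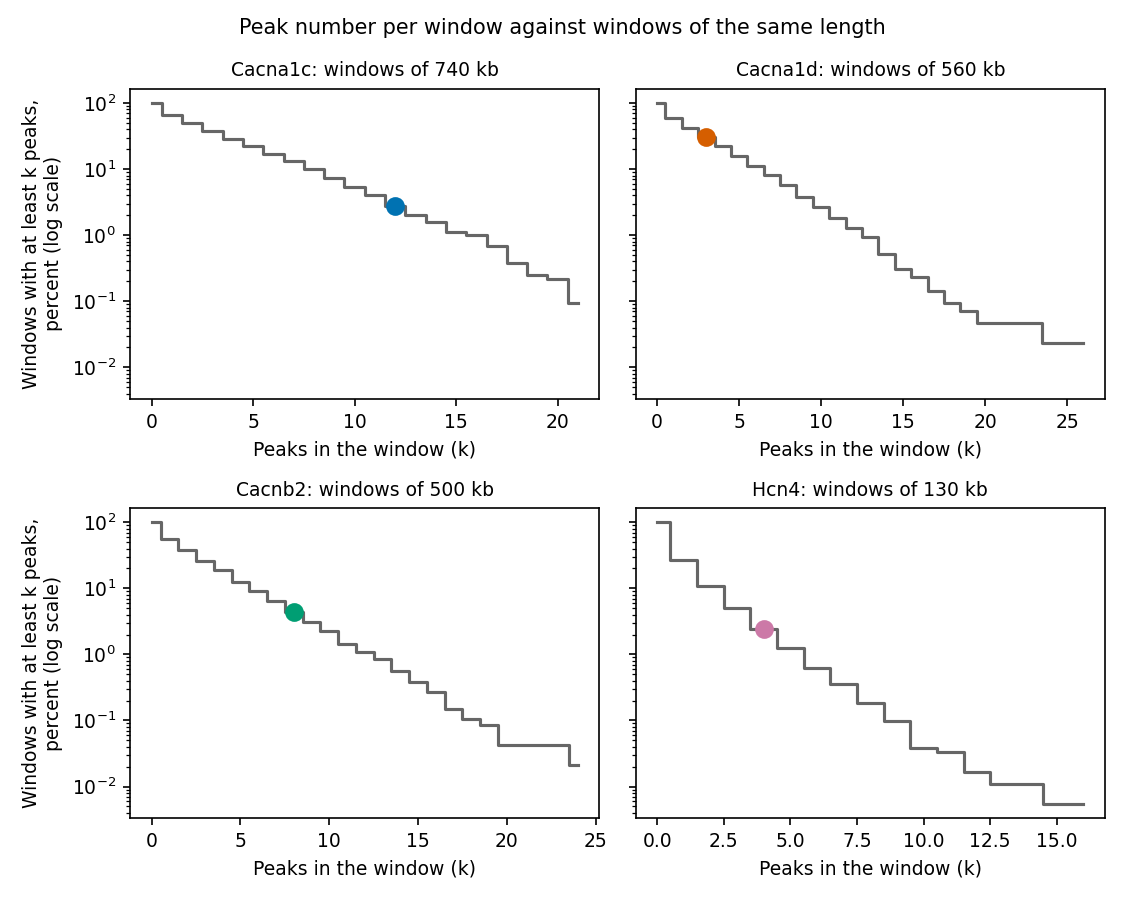
Each panel plots the share of autosomal windows of a locus's length that hold at least k TBX5 peaks (vertical axis, percent, log scale) against k, with the locus as a coloured point. Cacna1c (12 peaks), Cacnb2 (8) and Hcn4 (4) sit between 2.43% and 4.35%, and Cacna1d (3) sits at 30.2%.

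Per Mb of window, Hcn4 had 30.8 peaks (exact 95% Poisson interval 8.38 to 78.8), Cacna1c 16.2 (8.38 to 28.3), Cacnb2 16.0 (6.91 to 31.5) and Cacna1d 5.36 (1.10 to 15.7). All 4 intervals overlap, which does not by itself decide whether 2 densities differ, and the order of the densities was not tested. The intervals cover counting error only and treat peaks as independent, although TBX5 peaks gather in groups. The autosomes carried 3.68 peaks per Mb. The lower bounds of Hcn4, Cacna1c and Cacnb2 lay above that value and the Cacna1d interval contained it. Relative to their own chromosomes, the densities were 7.18-fold for Hcn4 on chromosome 9, 5.06-fold for Cacna1c on chromosome 6, 4.16-fold for Cacnb2 on chromosome 2 and 1.91-fold for Cacna1d on chromosome 14.

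A peak's fold is the authors' deposited ratio of the TBX5 pileup to the local control level at the summit, with 1 added to each. The sources used do not state which library was this control, so it may or may not be the rabbit IgG. The pileup is the number of TBX5 fragments times a scale of 0.787. The fragments divided by the control level therefore do not give the fold. The caller's formulas for fold and −log10 p were solved for the TBX5 fragments at the summit and the control level, which gave 1 pair of values for each of the 27 peaks. Brackets after a fragment number hold its exact 95% Poisson interval, which covers counting error only and takes each read as a molecule of its own. Over the 27 peaks the median fold was 7.33 (range 4.06 to 30.5), against 5.52 over all peaks. The median number of fragments was 30 (12 to 126), against 32 over all peaks. The median control level was 2.25 fragments per position (1.18 to 7), against 3.5 over all peaks. The genome background itself set the level at 4 of the 27, against 8.58% of all peaks. Over the 27 together, the median fold was thus higher, the median control level lower and the median number of fragments not higher. By locus the median fragments differed, with 36 at Hcn4, 34.5 at Cacnb2, 31 at Cacna1c and 20 at Cacna1d. A peak over a low control level needs a higher fold to be listed, and whether this raised the median fold was not tested.

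**Figure D2:**
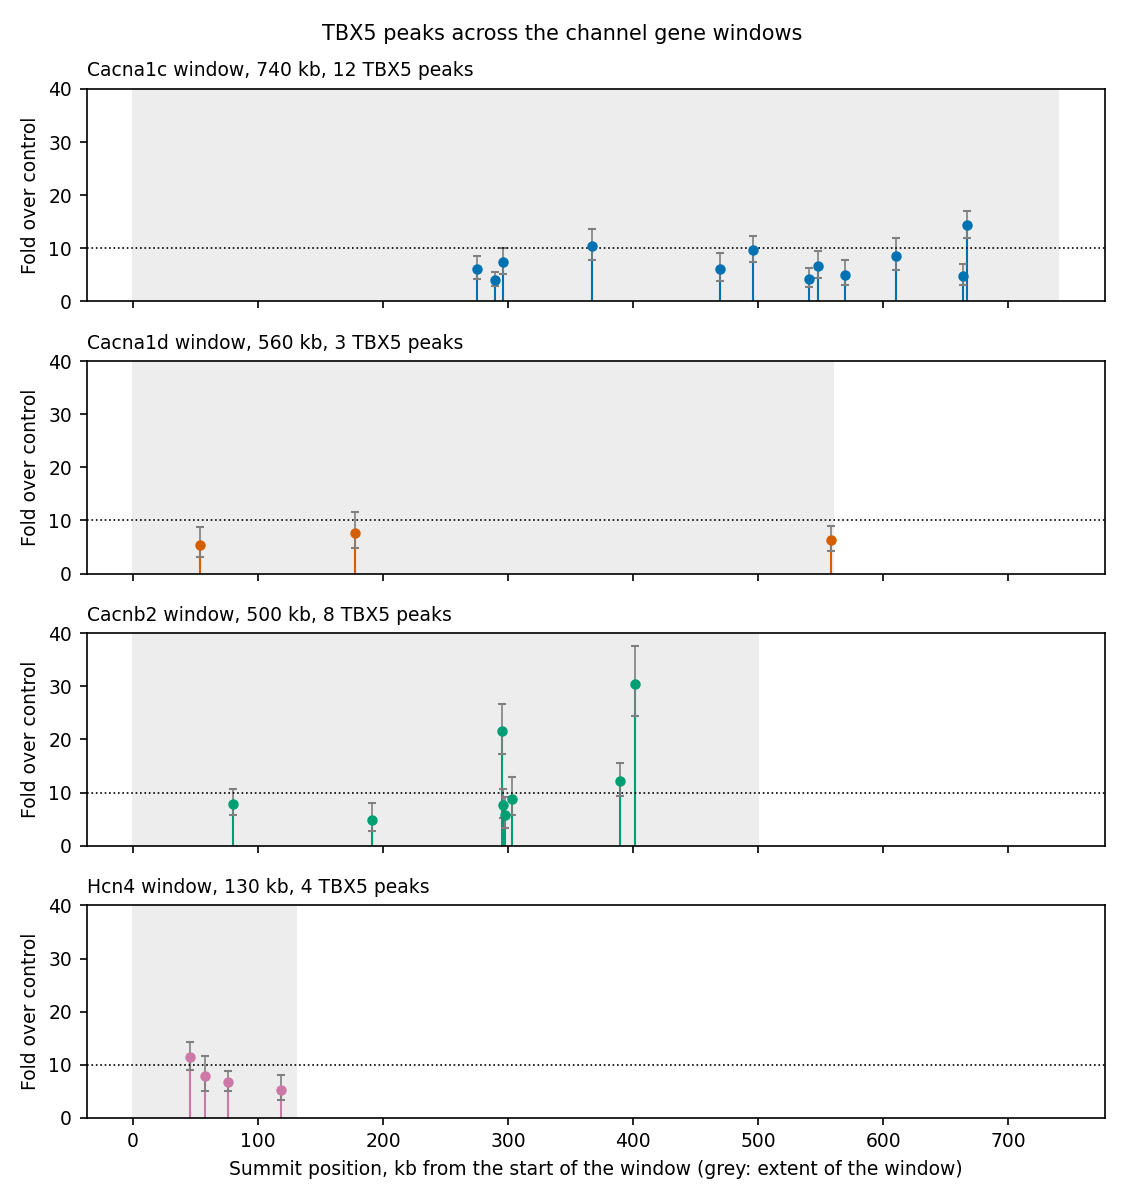
The deposited fold of each TBX5 peak (vertical axis) is plotted at its summit in kb from the window start, with the window in grey, bars for the 95% counting interval of the fold with the control level held fixed, and a dotted line at a fold of 10. Cacna1c peaks run through the right-hand part of its window up to 14.3, Cacnb2 reaches 21.6 and 30.5, Hcn4 reaches 11.4, and no Cacna1d peak passes 7.69.

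Folds of at least 10 were found at 6 of the 27 peaks, against 13.7% of all peaks. These were 3 of 8 at Cacnb2, 2 of 12 at Cacna1c, 1 of 4 at Hcn4 and 0 of 3 at Cacna1d. By −log10 q, the highest ranks were 168 at Cacnb2, 201 at Cacna1c, 735 at Hcn4 and 3762 at Cacna1d, of 8849.

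At Cacna1c, the Cav1.2 pore gene, many peaks of middle strength were spread over a long stretch and ended in a strong site. The strongest was chr6:119146411-119146904, 494 bp wide, with 126 TBX5 fragments (105 to 150) over a control level of 6 and a fold of 14.3. It ranked 153 by fragments and 492 by fold among the 8849 peaks. A weaker peak, chr6:119143758-119144029, had its summit 2.72 kb away and held 23 fragments (14.6 to 34.5) at a fold of 4.77. The other site above a fold of 10 was chr6:118847060-118847386, with 52 fragments (38.8 to 68.2) over a control level of 3 and a fold of 10.5. Just under that threshold, chr6:118975788-118976042 held 60 fragments (45.8 to 77.2) at a control level of 4, and its fold was 9.64. The interval of the strongest summit lay above those of the other 11, which held 18 to 60 fragments.

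The remaining Cacna1c peaks had folds of 4.06 to 8.46 and control levels of 1.76 to 7. The lowest fold of all 27, 4.06, belonged to chr6:118769792-118769920, with 40 fragments (28.6 to 54.5) over the highest control level of the 27, 7. In fragments it was above the list's median of 32, so its low fold went with the control. The 12 summits spanned 391 kb, with next neighbours 2.72 to 102 kb apart (median 26.3 kb). The first 275 kb of the window, 37.2% of its length, held no peak.

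At Cacnb2, the beta subunit gene, the folds were the highest of the 4 loci. The site of highest fold was chr2:14851469-14851909, 441 bp wide, with 83 fragments (66.1 to 103) and a fold of 30.5. Its control level, 1.18, was the genome background, the lowest level the caller used, and the fold ranked 34 of 8849 (0.384% of peaks were at or above it). It was followed by chr2:14744674-14745107, with 81 fragments (64.3 to 101) at a control level of 2, a fold of 21.6 and rank 140. The last site above 10 was chr2:14839258-14839578, with 61 fragments (46.7 to 78.4) over 3 and a fold of 12.2. The fragment intervals of these 3 sites overlap, and from the highest fold to the lowest the fragments went from 83 to 61 and the control level from 1.18 to 3, so both enter the difference in fold.

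The site of fold 21.6 was the first of 4 Cacnb2 summits that followed each other at 0.743, 2.27 and 5.30 kb. The nearest, chr2:14745469-14745955, held 30 fragments (20.2 to 42.8) over 2.25 and had a fold of 7.57. It was the widest peak of the locus, at 487 bp, and its summit sat at 20.2% of its width, on the side of the stronger site. The edges of both peaks were 361 bp apart, and they may count 1 enriched region as 2 peaks. The next, chr2:14747783-14747924, held 15 fragments at a fold of 5.69, and chr2:14753029-14753243 held 23 at a fold of 8.78. The weakest Cacnb2 peak, chr2:14640979-14641103, held 12 fragments at a fold of 4.80. The remaining one, chr2:14530219-14530472, held 39 (27.7 to 53.3) at a fold of 7.92.

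At Cacna1d, the Cav1.3 pore gene, the peaks were the fewest of the 4 loci and low in fragments. The first, chr14:30853218-30853372, held 14 fragments (7.65 to 23.5) at a control level of 1.23, with a fold of 5.40. The second, chr14:30977554-30977686, held 20 (12.2 to 30.9) at the genome background of 1.18, with a fold of 7.69. The last, chr14:31357932-31358071, held 29 (19.4 to 41.6) at a level of 2.76, with a fold of 6.33. None of the 3 reached the list's median of 32 fragments, and their intervals overlap. By fold, 2 of the 3 lay above the list's median of 5.52, and by −log10 q, 2 of the 3 lay above its median. The gap between the last 2 summits was 380 kb, 67.9% of the window.

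The last Cacna1d peak was only just a member. Its summit lay at 99.6% of the window's length, and the next peak of the list, chr14:31361274-31361569, was 1.37 kb beyond the edge. It held 55 fragments (41.4 to 71.6) at a control level of 8 and had a fold of 4.92. In the 56 kb past the edge lay 4 peaks with folds of 3.26 to 6.34, so a window wider by 56 kb at each end counted 7 peaks and a window narrower by 56 kb counted 1. No peak just outside another window was as close. The nearest were 32.0 kb before Cacnb2 (26 fragments, fold 9.86), 127 kb after Cacna1c (44 fragments, fold 3.56) and 160 kb after Hcn4 (46 fragments, fold 7.44). In the GRCm38.p6 table, the protein-coding genes next to Cacna1d by start are Chdh and Dcp1a. Those of Cacna1c are Ankrd26 and Dcp1b, those of Cacnb2 are Slc39a12 and Nsun6, and those of Hcn4 are Rec114 and Neo1. A peak in a window may lie at such a neighbour, and peaks were not placed in genes, exons or introns.

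At Hcn4, the pacemaker channel gene, 4 peaks lay in a short window, each at least 12.1 kb from the next. The strongest, chr9:58665604-58665922, held 71 fragments (55.5 to 89.6) at a control level of 4, had a fold of 11.4 and ranked 904 by fold. The second in fragments, chr9:58695567-58695806, held 51 (38.0 to 67.1) at a level of 5.13, had a fold of 6.71, and its interval overlaps that of the first. The other members were shallower. In chr9:58677788-58677943 there were 21 fragments (13.0 to 32.1) at a level of 1.25 and a fold of 7.79. In chr9:58737973-58738119 there were 19 (11.4 to 29.7) at a level of 2 and a fold of 5.32. The fold and the fragments order the middle peaks differently, because the one with 51 fragments had the highest control level of the locus.

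**Figure D3:**
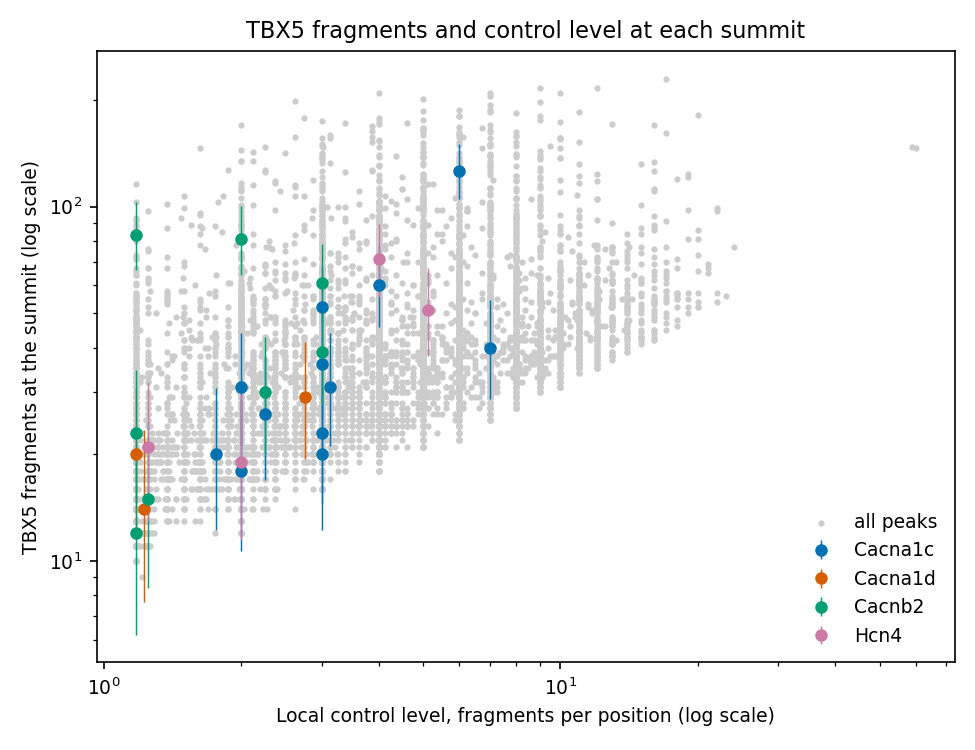
TBX5 fragments at the summit (vertical axis) are plotted against the local control level (horizontal axis, both log scales) for all 8849 peaks in grey and the 27 members in colour, with exact 95% Poisson intervals on fragments. The strongest Cacnb2 point (83 fragments) lies at the left edge at a control level of 1.18, and the strongest Cacna1c point (126) at 6.

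The fragments at the strongest summits of the 4 loci differed at an adjusted p below 0.05 in 5 of 6 pairs (exact conditional binomial test, 2-sided, Benjamini-Hochberg adjusted over the 6 pairs). The test compares fragments at 2 sites of a merged library and says nothing of animals. It does not take in the control levels, which were 6 at the Cacna1c summit, 2.76 at Cacna1d, 1.18 at Cacnb2 and 4 at Hcn4. A ratio of fragments is therefore not a ratio of folds. The Cacna1c summit, with 126 fragments, held 4.34 times as many as that of Cacna1d with 29 (95% interval 2.88 to 6.75, adjusted exact p = 7.75e-15). It held 1.77 times as many as that of Hcn4 with 71 (1.32 to 2.41, adjusted exact p = 0.000163) and 1.52 times as many as that of Cacnb2 with 83 (1.14 to 2.03, adjusted exact p = 0.00428). The Cacnb2 summit held 2.86 times as many as that of Cacna1d (1.86 to 4.53, adjusted exact p = 9.87e-07), and the Hcn4 summit 2.45 times as many (1.57 to 3.91, adjusted exact p = 6.43e-05). The Cacna1d summit in these pairs depends on the window edge. A peak of 55 fragments, 1.37 kb past that edge, was not in the test. The difference between Cacnb2 and Hcn4 did not pass the threshold (ratio 1.17, 0.841 to 1.63, adjusted exact p = 0.375). Each summit was picked as the highest of its locus by the same fragments that were tested, and a locus with more peaks has more summits to take it from. The test treats the sites as fixed in advance, so its p-values and intervals do not cover this choice.

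Ranked by fold, the order of Cacna1c and Cacnb2 turned. The top fold was 30.5 at Cacnb2 (24.4 to 37.7) and 14.3 at Cacna1c (11.9 to 17.0), with the control level held fixed in both intervals. The control levels behind them were 1.18 and 6, and their own counting error is not in these intervals. Hcn4 (11.4, 8.92 to 14.3) overlapped Cacna1c and lay below Cacnb2. By fold, the top Cacna1d peak was that of 20 fragments, at 7.69 (4.88 to 11.6), whose interval overlaps that of Hcn4.

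**Figure D4:**
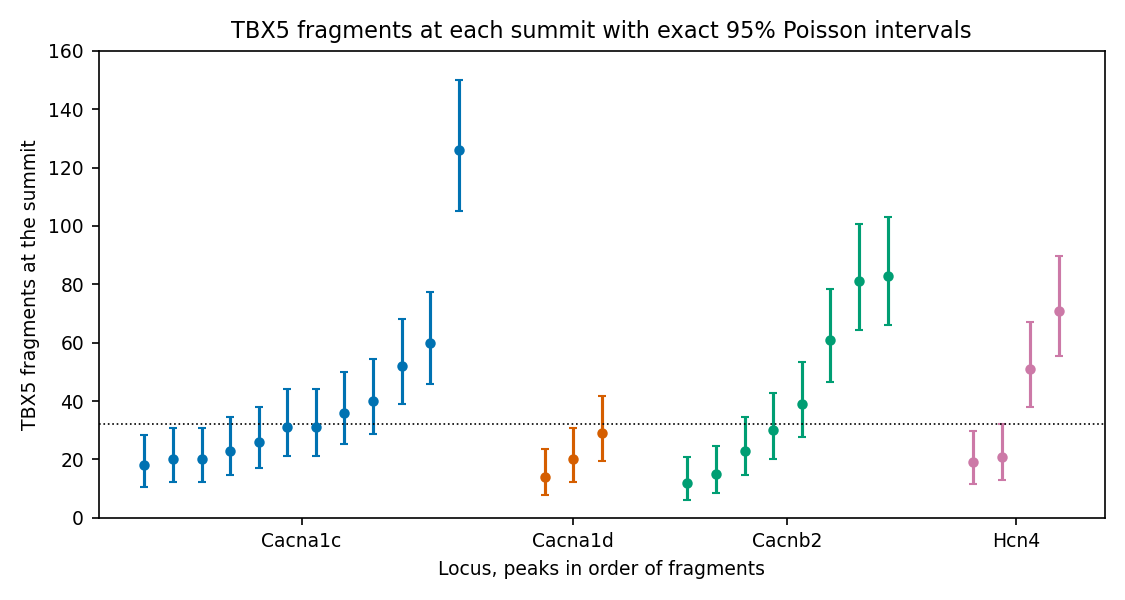
TBX5 fragments at the summit (vertical axis) are plotted for each of the 27 peaks, in order of fragments within each locus, with exact 95% Poisson intervals and a dotted line at the median of all peaks (32). The strongest Cacna1c summit stands alone at 126, while the top summits of Cacnb2 (83 and 81) and Hcn4 (71 and 51) overlap within each locus and all Cacna1d summits lie below the line.

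Another summit within 10 kb was found for 11 of the 27 peaks, against 32.8% of all peaks. These were 6 of 12 at Cacna1c, 4 of 8 at Cacnb2, 1 of 3 at Cacna1d and 0 of 4 at Hcn4. These counts depend on the distance chosen, since within 5 kb only 2 Cacna1c peaks had a neighbour, and within 25 kb 3 Hcn4 peaks did. The single Cacna1d case had its neighbour outside the window, 3.36 kb away. Peaks were of ordinary width, with a median of 215 bp (125 to 494 bp) against 202 bp over all peaks. The locus medians were 288 bp at Cacnb2, 200 bp at Cacna1c, 198 bp at Hcn4 and 140 bp at Cacna1d. Peaks covered 0.663% of the Hcn4 window, 0.484% of Cacnb2, 0.380% of Cacna1c and 0.0764% of Cacna1d.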

How the data were processed

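TBX5 was profiled by ChIP-seq, and 1 merged list of 8849 peaks was used. The submitters' processing notes name MACS2 (2.1.1.20160309.0), Bowtie2 (2.2.6.2), FastQC (0.10.0) and build mm9. Caller settings, control library and the merging of replicates were not given in the sources used, and no library's total read number was used. The authors deposited a score, a fold (ratio), −log10 p and −log10 q per peak. From fold and −log10 p, a pileup scale of 0.787 and a genome background of 1.18 solved all 8849 peaks for whole TBX5 fragments (largest difference 0.000137, tolerance 0.005 on −log10 p). For 240 of them, none a member, more than 1 solution lay within that tolerance and the closest was taken. The recovery was tested on simulated data. Reference windows were laid end to end between the first and last summit of each autosome, which also gave peaks per Mb. Coordinates are mm9, counted from 1. The planned comparisons with gene positions, motifs under peaks and other channel genes need mm9 annotation or sequence and were not run. Members, lists and tests were chosen with earlier results of these data known. All 27 member peaks are accounted for; described in full are the strongest of each locus, those of fold 10 or more and those with a neighbour within 1 kb, and the text adds others as neighbours or extremes, chosen after their values were seen. Alternatives covered window edges, peak choice, thresholds and distances. Tools were scipy 1.17.1, numpy 2.4.6 and pandas 2.3.3 under Python 3.11.15, with figures by matplotlib 3.10.9.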

Additional observations from a re-analysis of the deposited data

How the results depend on the processing

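Of 64 alternatives, 13 used the very peaks of the main value and could not move it (9 of the 12 pair repeats and the 4 medians over peaks with a single solution). Of the other 51, 37 kept the value within its limit (1.5 times for counts, the 95% interval for shares and medians, and for tests the same direction and call) and 14 moved it. Some of these 37 also returned the main peaks and so say little of how far the values hold. Counting any overlap with the window left the count of every locus as it was. Merging peaks within 1 kb did so at Cacna1c, Cacna1d and Hcn4. The 3 pair comparisons that took another summit, those of Cacna1d by fold, kept direction and call. No pair comparison was repeated with another window edge. The Cacna1d count of 3 became 1 in the narrower and 7 in the wider window. In the higher-scoring part of the list Cacna1c had 7 peaks. Among windows with a peak, the shares were 4.23% (Cacna1c), 51.1% (Cacna1d), 7.70% (Cacnb2) and 9.09% (Hcn4). At a threshold of 8 the high-fold peaks of Cacna1c numbered 4, and at a threshold of 6 they were 8 at Cacna1c, 2 at Cacna1d, 6 at Cacnb2 and 3 at Hcn4. Within 5 kb, 2 Cacna1c peaks had a neighbour, and within 25 kb 3 Hcn4 peaks did. The direction of these moves follows from each setting's construction, but for the Cacna1d window the size does not. The narrower and wider windows gave 11 and 12 peaks at Cacna1c, 8 and 9 at Cacnb2 and 3 and 4 at Hcn4. With peaks within 1 kb merged, Cacnb2 had 7. No paired analysis was possible because the deposited list merges the replicates, and leaving out a replicate was not possible for the same reason. Sites under the caller's threshold are not in the list, so a stretch without a peak shows only that no site passed it.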

Other observations

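Long stretches without a listed TBX5 peak lay on a single side of 3 of the 4 loci. After the last Cacnb2 summit, which is the site of fold 30.5, the next summit of the list was 1804 kb away, and 2.73% of the 8720 gaps between next summits on the autosomes were as long. Before the first Cacna1c summit the gap was 1188 kb (4.76% as long), and before the first Cacna1d summit it was 998 kb (6.00% as long). The gaps on the other sides of these loci were shorter. They were 112 kb before Cacnb2 (41.1% as long), 200 kb after Cacna1c (28.9%) and 3.36 kb after Cacna1d (89.6%). At Hcn4 the gaps were 263 kb before and 172 kb after (23.5% and 32.1% as long). All gaps run from the outermost member summit and so include empty window ends, such as the first 275 kb of the Cacna1c window. The shares count gaps by number and not by length. These gaps were looked at after the member peaks had been seen, and no test was made.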
